A study of Mus musculus with 2 samples.

Results

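The cells described here are retinal precursors that carried RNA of Otx2 and of Neurod1 or Neurod4 but no detected Crx RNA, 803 of 9395 cells in 2 single-cell libraries. A barcode was a member when it had at least 500 genes, at most 10% mitochondrial UMIs (unique molecular identifiers, the counted RNA molecules), at least 1 UMI of Otx2, at least 1 of Neurod1 and Neurod4 together, 0 of Crx, 0 of Ptf1a, under 10 of Sncg, and at most 1 over the pigment genes Dct, Pmel and Mlana. The pigmented library held 510 members among 5883 cells (8.67%, exact 95% interval 7.96 to 9.42) and the albino library 293 among 3512 (8.34%, 7.45 to 9.31). These values chose the members and are no finding, and the class is a range cut from 9 genes rather than a type of cell with its own border.

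The study profiled peripheral retina of mouse embryos at E13.5, including the ciliary margin, to compare albino with pigmented mice. Both libraries came from α-Cre;Td mice, in which α-Cre, driven by a Pax6 enhancer active in the peripheral retina, turns on the red protein TdTomato. Red cells were sorted, so cells outside the reach of α-Cre were not sampled, and 3 embryos were pooled for each library, with 1 library per group. The pigmented library carries the strain name Tyrc2j, known as an albino allele of tyrosinase and at odds with its title, and the albino library carries Swizz ICR. The titles were followed, and pigmentation, strain, pool, sex and library cannot be told apart. The albino pool was female by its RNA, with 0 cells carrying only Y-linked UMIs, whereas 45.9% of the pigmented cells did.

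Otx2, a homeobox factor, is required for photoreceptors and is also used by bipolar and horizontal cell precursors. Neurod1 and Neurod4 are proneural basic helix-loop-helix factors, and Crx is the homeobox factor that acts downstream of Otx2 in photoreceptors. In the embryonic retina, cells that express Olig2, Neurog2, Otx2 and Onecut1 around their last division are known to give cones and horizontal cells, Onecut1 acting in both fates and Prdm1 holding cells to the photoreceptor fate.

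The members had a median depth of 10683 UMIs in the pigmented and 10902 in the albino library, near the median of all cells (10448 and 11239). Totals were 69965728 UMIs over 6089 pigmented barcodes and 46271969 over 3676 albino barcodes. The libraries shared 8 barcodes, 1 of them a member. Scrublet, a doublet caller, marked 22 pigmented members (4.31%) and 3 albino members (1.02%), and they were kept because the rule did not remove them. Xist and Y-linked UMIs met in 6.08% of the pigmented members and 3.52% of all pigmented cells. In the albino library 3 members above 50000 UMIs held 12.5% of the class's UMIs, and the deepest held 4.63%. Markers of mesenchyme and pigment epithelium were lower in the members than over all cells. The rule's limit on Dct, Pmel and Mlana left pigment cells out of the members, so the pigment epithelium values are no finding. Summed mesenchyme markers stood at 30.6 UMIs per 1000000 (CPM) in pigmented and 10.4 in albino members with Foxc1 at 0 in both, against 150 and 128.5 over all cells, and pigment epithelium markers at 5.26 and 5.55 with Rpe65 at 0, against 37.9 and 49.2. Surface ectoderm markers stood at 42.1 and 25.8 CPM with Krt15 and Trp63 at 0 in both, against 31.25 and 48.95 over all cells.

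Many members stood close to the border of the rule. Otx2 was at 1 UMI in 141 pigmented members (27.65%) and 89 albino members (30.4%), and 34 and 25 members had 1 UMI each of Otx2 and of the Neurod genes. Just outside lay 80 pigmented and 37 albino cells that met every other term but had 1 Crx UMI, 9 and 6 cells with 1 Ptf1a UMI, 13 and 12 cells with 10 or more Sncg UMIs, and 3 and 3 with more than 1 pigment UMI. Neurod1 carried the Neurod term in most members: Neurod4 was at 0 in 321 of 510 and 190 of 293. A Crx count of 0 is also a matter of depth. When cells with Crx were thinned to 5000 UMIs, 74.55% of the pigmented (224 cells) and 77.8% of the albino ones (99 cells) still showed it.

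4 neighbouring sets that fail 1 term of the rule served for comparison. Crx-positive cells have at least 1 Crx UMI (243 pigmented and 105 albino cells, median depth 8258 and 8295), Otx2-negative cells have Neurod RNA and no Otx2 (617 and 321 cells), Neurod-negative cells have Otx2 and no Neurod RNA (440 and 240 cells), and Ptf1a-positive cells number 35 and 20. Levels are UMIs summed over a set's cells per 1000000 UMIs of that set (CPM), with exact Poisson intervals. Each group is a single library, so nothing could be tested, and the intervals throughout cover counting error only. A gene is called when it differed at least 2-fold in the same direction in both libraries (5 CPM added to each level, at least 50 UMIs over the cells compared). Since Crx, Otx2 and Neurod counts chose the sets, the comparisons describe how other genes go with that choice.

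Prdm1 and Onecut1, which the rule did not use, were both present, to different extents. Onecut1 (chr9:74861921-74891781, plus strand) had 1876 UMIs in pigmented members, a level of 290.1 CPM (277 to 304), and 1176 in albino members, 284 CPM (268 to 301). The intervals of the libraries overlapped. At 5000 UMIs per cell Onecut1 was detected in 60.9% of pigmented and 62.9% of albino members, against 1.85% and 3.10% of cells with at least 10 UMIs of mesenchyme markers, a measure of free RNA (at full depth, 74.9% and 73.7% of members against 5.41% and 8.96%). Median full depths of these thinned mesenchyme cells were 14310 and 14447 UMIs, and those of the members 10767 and 11127. Prdm1 (chr10:44437177-44528501, minus strand), which encodes the repressor Blimp1, was at 86.6 CPM (79.6 to 94.1) and 82.3 CPM (73.8 to 91.6). It was detected in 23.8% and 24.0% of thinned members against a background of 3.70% and 0% (35.5% and 32.1% of members at full depth). Onecut1 was thus common in the class and Prdm1 present in a minority.

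The upstream bases of 4 genes are shown because the members are defined by no detected Crx RNA, and Prdm1, Onecut1 and Olig2 are the carried genes that the results turn on. They are RefSeq promoter windows in GRCm38.p6, read 5′ to 3′ on each gene's strand and stopped at the gene's first annotated exon. Capitals mark the core homeobox motif TAATCC, which Otx2 and Crx are known to bind, or its reverse complement GGATTA.
Crx, chr7:15879969-15880205, minus strand: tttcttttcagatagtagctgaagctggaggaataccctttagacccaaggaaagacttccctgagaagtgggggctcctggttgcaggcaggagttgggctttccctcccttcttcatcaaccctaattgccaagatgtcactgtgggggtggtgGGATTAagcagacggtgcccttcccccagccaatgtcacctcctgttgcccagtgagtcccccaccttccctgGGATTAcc
Prdm1, chr10:44458749-44458998, minus strand, in an intron of longer annotated transcripts: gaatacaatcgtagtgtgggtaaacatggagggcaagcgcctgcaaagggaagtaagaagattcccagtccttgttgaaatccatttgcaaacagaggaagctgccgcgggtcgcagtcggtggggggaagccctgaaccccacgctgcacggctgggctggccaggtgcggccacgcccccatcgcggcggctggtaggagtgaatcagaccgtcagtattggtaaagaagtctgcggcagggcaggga
Onecut1, chr9:74861671-74861920, plus strand: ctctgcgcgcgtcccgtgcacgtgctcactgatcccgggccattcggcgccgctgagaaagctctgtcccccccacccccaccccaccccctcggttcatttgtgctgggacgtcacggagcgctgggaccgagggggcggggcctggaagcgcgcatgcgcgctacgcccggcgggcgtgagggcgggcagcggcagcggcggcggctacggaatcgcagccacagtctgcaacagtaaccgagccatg
Olig2, chr16:91225300-91225456, plus strand: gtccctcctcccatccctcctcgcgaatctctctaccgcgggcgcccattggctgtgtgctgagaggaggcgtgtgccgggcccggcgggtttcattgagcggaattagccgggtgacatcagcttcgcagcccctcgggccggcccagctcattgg

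In windows of 250 bases before the start, searched on both strands, TAATCC was found 2 times for Crx, starting at positions -94 and -21, and 0 times for Prdm1, Onecut1 and Olig2. Of the other genes searched, 1 of 4 Otx2 windows (at -211) and 1 of 2 Thrb windows (at -46) also held it, so the motif does not separate Crx from genes that the members carry. The searched windows were not stopped at exons. That Otx2 window overlaps an annotated Otx2 exon, and the Thrb match lies past the start of an annotated Thrb exon. It occurs in 2052 of 32817 promoter windows (6.25%). A match is a string of letters and not a binding site, and its absence from this window says nothing of the factor.

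Atoh7, Neurog2, Olig2 and Dll4 had their highest level in the members among the sets compared. Atoh7, the basic helix-loop-helix factor needed for ganglion cells and transcribed in many neurogenic progenitors, was at 6546 CPM in pigmented members, 3004 in Crx-positive, 3588 in Otx2-negative and 791 in Neurod-negative cells, and the albino values were 5847, 3034, 3531 and 866. Neurog2, a proneural factor, was at 548 CPM in pigmented members against 34.1, 191 and 32.6, and in albino members at 455 against 34.9, 118 and 43.5. Olig2, a factor of neurogenic progenitors, was at 69.4 CPM against 4.87, 7.86 and 0, and in albino members at 56.5 against 5.98, 5.78 and 0. Dll4, a Notch ligand of cells leaving the cycle, was at 105.5 CPM in pigmented and 99.2 in albino members, and at 33.98 or below in each pigmented and at 32.9 or below in each albino neighbouring set. This order held for the 4 genes in both libraries. Olig2 RNA was found in 23.4% and 21.55% of thinned members (36.3% and 32.8% at full depth) against 0.463% and 0.775% of mesenchyme cells (3.15% and 3.73%), and Neurog2 in 65.9% and 65.7% (74.9% and 72.7%) against 2.78% and 3.88% (6.76% and 6.72%).

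**Figure D1:**
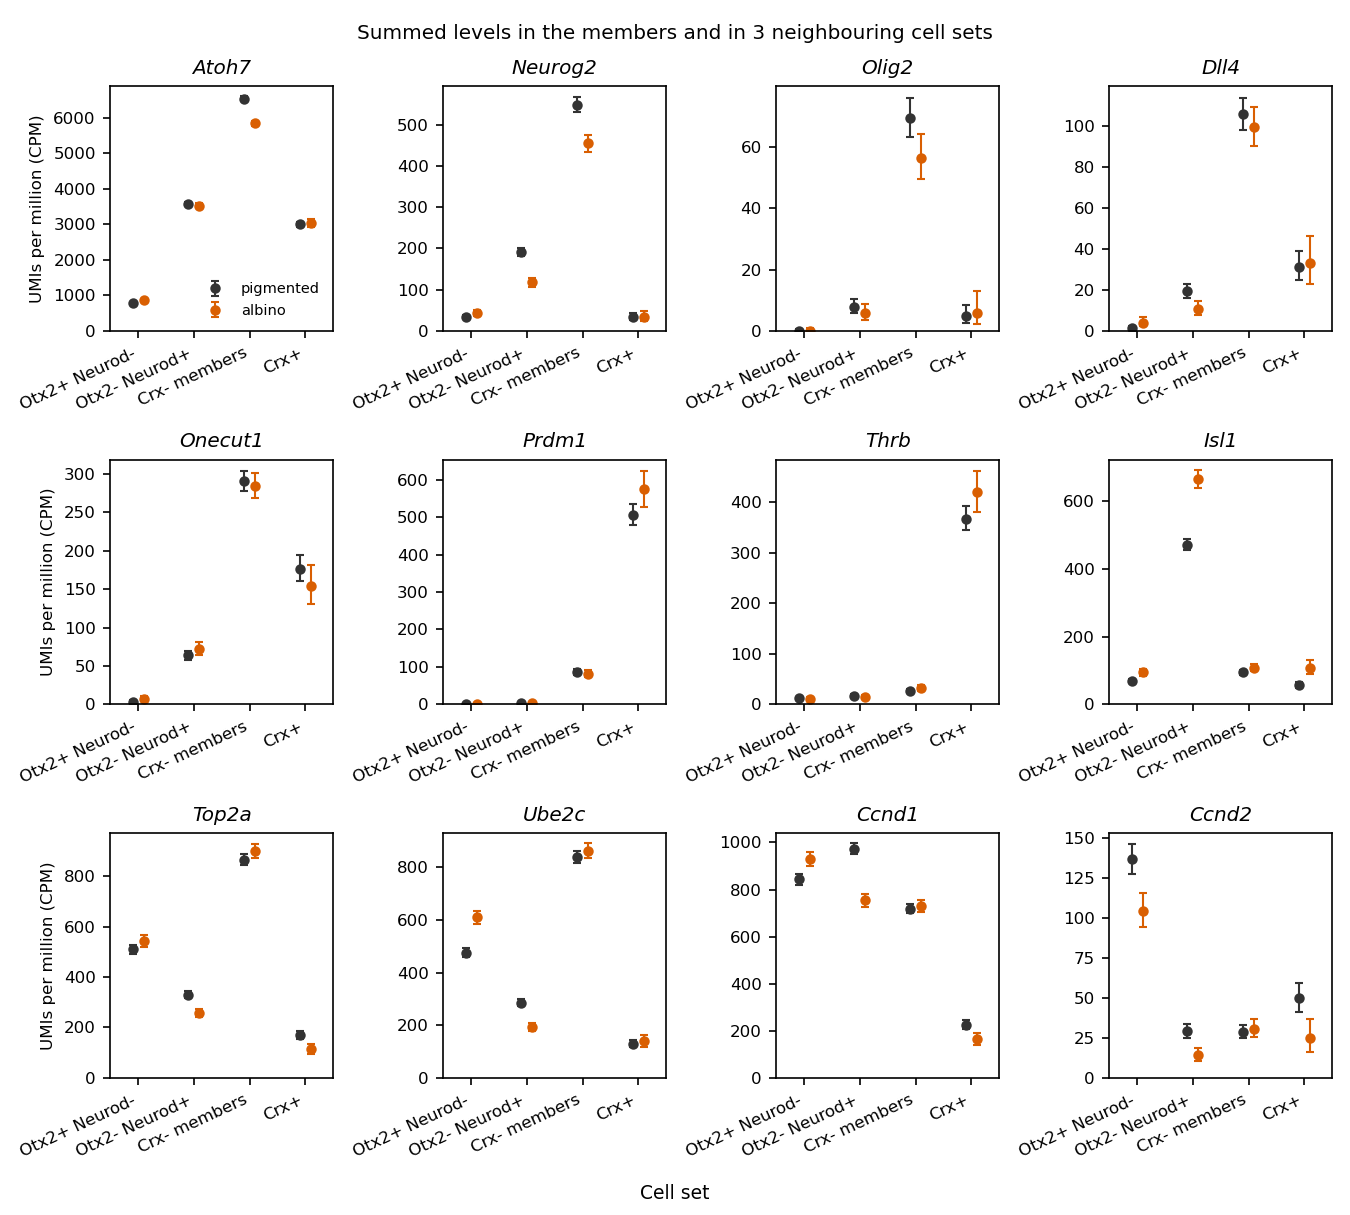
Summed level in CPM (y axis, from 0) of 12 genes in the members and 3 neighbouring cell sets (x axis), one point per library with the exact 95% Poisson interval as a bar. Atoh7, Neurog2, Olig2, Dll4, Onecut1, Top2a and Ube2c are highest in the members in both libraries, while Prdm1 and Thrb are highest in the Crx-positive cells and Isl1 in the Otx2-negative cells.

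Against the Crx-positive cells, 326 of 10562 genes were higher in the members (3.09%) and 421 were lower (3.99%), 7.07% in either direction. Signs of doublets differed between these sets: Scrublet marked 7.82% of the pigmented Crx-positive cells and 4.31% of the members, Xist and Y-linked UMIs met in 9.88% and 6.08%, and their part in the comparison was not tested. The 10 genes that ranked highest, by the interval bound nearest to no change, were Neurog2, Pbk, Sstr2, Penk, Hmmr, Ube2c, Cenpf, Hist1h1b, Cdk1 and Tpx2. Neurog2 was 16.1-fold higher (12.9 to 20.2) in the pigmented and 13.0-fold (9.35 to 18.8) in the albino library. Sstr2, a somatostatin receptor, was at 145 CPM against 12.2 in pigmented and 122 against 13.0 in albino cells. Penk, which encodes proenkephalin, was at 106.5 against 9.74 and 92.0 against 8.96. Pbk, Hmmr, Ube2c, Cenpf, Cdk1 and Tpx2 act in mitosis, and Hist1h1b is a histone gene of S phase. Of the neurogenic list, Neurog2 and Hes6 were called higher and none lower. The list had medians of 1.12 and 0.93 on the log2 scale against -0.10 and -0.09 for all genes. Olig2 and Penk were called higher too, but reached the UMI minimum only through the members, so no count over that list is given. Sstr2 has the same limit.

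The genes that ranked lowest against the Crx-positive cells were Slc17a6, Samsn1, Slitrk6, Pdc, Samd11, Gngt2, Ano5, Epha8, Cntn1 and Cngb3. Slc17a6, Samsn1, Slitrk6, Ano5, Epha8 and Cngb3 reached the UMI minimum only through the Crx-positive cells. Gngt2, a G protein subunit of cones, was at 20.9 CPM in pigmented members and 432 in Crx-positive cells, and at 9.66 and 566 in the albino library. Thrb, a thyroid hormone receptor of cones, was at 26.4 against 367 and at 31.6 against 419. Several photoreceptor list genes reached the UMI minimum only through the Crx-positive cells, so no count over that list is given. Rorb, a nuclear receptor of photoreceptor development, was not called, at 1955 against 1446 CPM and 2123 against 1455. Prdm1 was lower too, at 0.171 (0.155 to 0.189) and 0.1435 (0.125 to 0.164) of its Crx-positive level, whereas Onecut1 stood at 290.1 against 176.5 CPM and 284 against 154. Neurod4 and Otx2 RNA, which the rule used, had levels of 111 and 428 CPM in pigmented members and 645 and 804 in Crx-positive cells. Of the neuronal list, 5 of 9 genes were lower (Dcx, Stmn2, Stmn3, Map2 and Gap43), where 3.99% of all genes were.

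Levels were also read in 4 bins of Crx UMIs, the members being the bin at 0. The bins are not an order in time, which was not measured, so that the members precede Crx in time is not shown by these data. Neurog2 was at 548 CPM at 0 Crx UMIs, 44.6 at 1, 34.8 at 2 to 4 and 0 at 5 or more in the pigmented library, and at 455, 68.8, 21.0 and 10.3 in the albino library. Prdm1 ran the other way, at 86.6, 425, 515 and 697 and at 82.3, 464, 622.5 and 643. For both genes the step from 0 to 1 Crx UMI was the widest. Ccnd1, which encodes cyclin D1, was lower in each bin than in the one before, at 719, 308, 214 and 32.5 and at 731, 284, 118 and 72.0. Onecut1 was at 290.1, 187, 165 and 206 and at 284, 164.5, 137 and 180.0. The albino bin at 5 or more held 17 cells. There Otx2 and Neurod4 were at 833 and 658.5 CPM, below the bin at 2 to 4, and without it both were higher in each bin than in the one before. Median depths were 8051 to 10683 and 8196 to 10902 UMIs over the bins, and their part in these values was not tested.

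**Figure D2:**
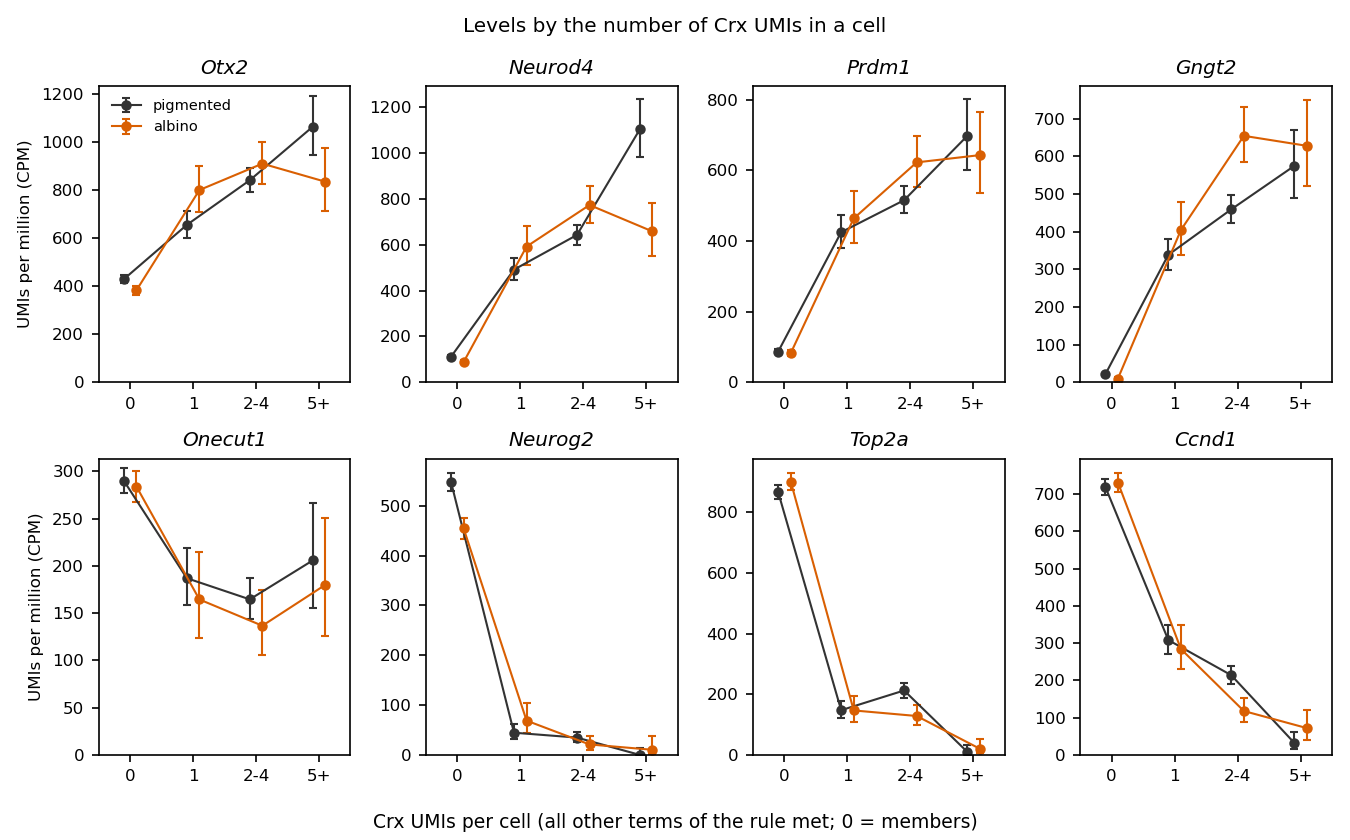
Level in CPM (y axis, from 0) of 8 genes in cells grouped by their Crx UMIs (x axis; 0 is the members), one line per library with exact 95% Poisson intervals. Neurog2, Top2a and Ccnd1 are lower at 1 Crx UMI than at 0 in both libraries, while Prdm1, Neurod4 and Gngt2 are higher.

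Against the Otx2-negative cells, which have Neurod RNA but no Otx2, 122 of 11220 genes were higher in the members (1.09%) and 62 were lower (0.553%). Prdm1, Olig2, Hes2, Dll4, Pdc, Pcdh17, Onecut1, Penk, Sstr2 and Pkib ranked highest. Of these, Prdm1, Hes2 and Pdc reached the UMI minimum only through the members. Prdm1 was at 86.6 against 2.77 CPM and at 82.3 against 3.675, a ratio of 31.3 (19.9 to 52.4) and 22.4 (13.2 to 41.4). Onecut1 was 4.55-fold (4.10 to 5.06) and 3.93-fold (3.45 to 4.50) higher. Pcdh17, a protocadherin, was at 137 against 22.6 CPM and at 133.5 against 26.3. Pdc, which encodes phosducin of photoreceptors, ranked high from few UMIs, at 5.41 and 7.002 CPM, was not called, and 1 albino cell held 31.0% of its UMIs. The neurogenic list had 5 of 10 genes higher, Neurog2, Olig2 and Penk among them, with medians of 0.946 and 0.996 against -0.03 and -0.01 for all genes.

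The lowest ranks in that comparison included Ccer2, Nefm, Nefl, Irx2, Elavl4, Slc18a2, Isl1, Igfbpl1 and Mapt, several of them genes of young ganglion cells. Ccer2, Slc18a2 and Mapt reached the UMI minimum only through the Otx2-negative cells. Isl1, a LIM homeobox factor of ganglion cells, was at 94.8 CPM in members and 471 in Otx2-negative cells of the pigmented library, and at 108 and 663 in the albino library. Nefm, a neurofilament subunit, was at 15.3 against 206.5 and at 16.7 against 381. Of 14 ganglion cell genes 9 were called lower and none higher, with medians of -1.79 and -2.38. For all genes the medians were -0.03 and -0.01, and 0.553% were called lower. Of the neuronal list, Dcx, Elavl4, Stmn2, Stmn3 and Gap43 were called lower, and so was Mapt with the limit given above. Of the photoreceptor list, Prdm1 was called higher, having reached the UMI minimum only through the members.

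Against the Neurod-negative cells, which have Otx2 but no Neurod RNA, 183 of 11173 genes were higher in the members (1.64%) and 106 lower (0.949%), 2.59% in either direction. The neurogenic list had 9 of 10 genes higher, all but Sox11, with medians of 2.96 and 2.72 against -0.03 and -0.01 for all genes. Hes6, an inhibitor of Hes1, was at 1802 against 231 CPM and at 1698 against 258. Of the Notch ligand and Fringe genes, the ligand Dll1 and the Fringe gene Mfng were called higher and none lower. The ligands Dll3 and Dll4 were called higher too, but reached the UMI minimum only through the members, so no count is given. Of the Notch receptor and effector genes tested, 1 was called higher, and Hes1 was called lower. Notch3 was called lower too, but reached the UMI minimum only through the Neurod-negative cells. Hes1, a Notch effector, was at 112 against 564 CPM and at 181 against 519. The receptor Notch1 was the one called higher, at 150 against 42.9 and 148 against 51.9. Of 11 progenitor genes 3 were lower (Fgf15, Sfrp2 and Id3) and none higher. Among ciliary margin genes, Gja1, a gap junction subunit, was at 21.65 against 92.4 CPM and at 13.04 against 64.97, and Wfdc1 at 19.02 against 113 and at 14.7 against 120.7.

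RNA of G2 and mitosis was higher in the members than in the other cells with Neurod RNA. Of the 19 genes of the G2/M list, all but Aurka, Bub1 and Kif23 also reached the UMI minimum in the Crx-positive cells alone. Each of these was called higher in the members than in Crx-positive cells. Aurka, Bub1 and Kif23 were called higher too, but reached the minimum only through the members. The list had medians of 2.33 and 2.61 against -0.10 and -0.09 for all genes, of which 3.09% were called higher. 18 of 19 were called higher than in Otx2-negative cells, with medians of 1.28 and 1.79 against -0.03 and -0.01 for all genes, of which 1.09% were called higher. Against Neurod-negative cells 1 of 19 was called higher, Hmmr, with medians of 0.58 and 0.54 against -0.03 and -0.01 for all genes, of which 1.64% were called higher. Top2a, a topoisomerase of dividing cells, was at 866 CPM in pigmented members, 168 in Crx-positive, 329 in Otx2-negative and 511 in Neurod-negative cells, and at 900.4, 113.5, 256.5 and 543 in the albino library. Ube2c, which works with the anaphase-promoting complex, was at 839.7, 130.3, 285 and 475 and at 863, 139, 194 and 609.5.

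Cell by cell, with each cell thinned to 5000 UMIs, the median member had 18 G2/M UMIs in the pigmented and 21 in the albino library. The medians were 0 and 0 in Crx-positive, 1 and 1 in Otx2-negative, 9 and 9.5 in Neurod-negative and 3 and 2 in all cells. At least 20 G2/M UMIs were found in 49.0% (44.5 to 53.5) of 496 pigmented and 52.65% (46.65 to 58.6) of 283 albino members, against 2.68% and 3.03% of Crx-positive, 14.4% and 12.1% of Otx2-negative, 31.1% and 33.2% of Neurod-negative and 21.0% and 18.6% of all cells. Without thinning, 47.8% and 51.9% of members had at least 40 G2/M UMIs per 10000. At the other end, 22.6% (18.97 to 26.5) and 23.7% (18.8 to 29.1) of members had at most 1 G2/M UMI. The thinning left out 14 and 10 members. The class therefore joined cells with much G2/M RNA and cells with nearly none, and the word precursor in its name does not separate them. No phase was called from these counts.

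**Figure D3:**
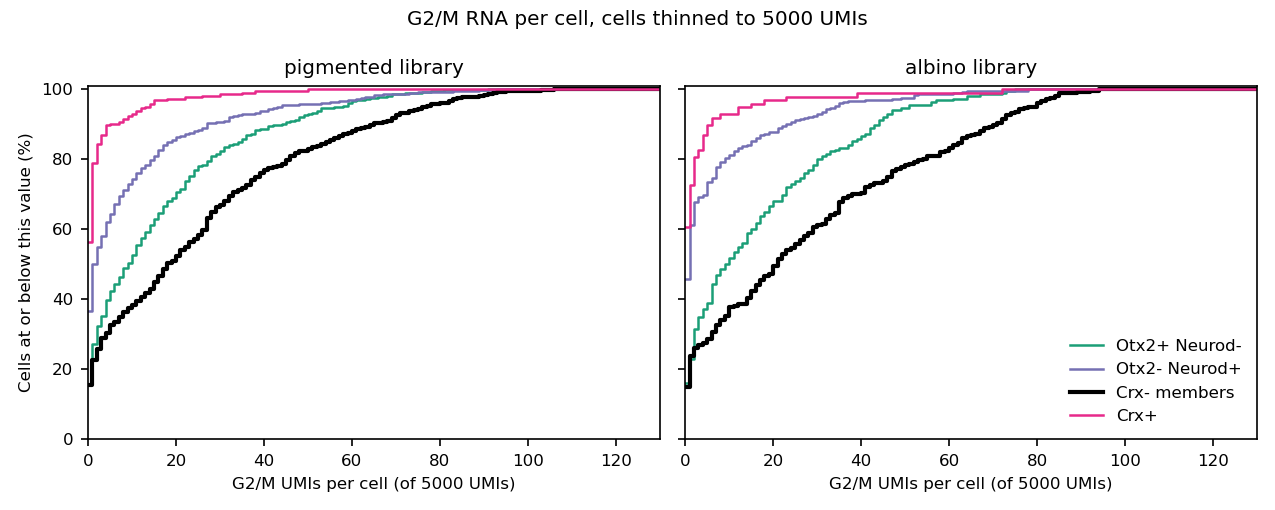
Cumulative share of cells (y axis, percent) by their G2/M UMIs of 5000 (x axis), one line per cell set and one panel per library. The members' line lies furthest right over most of its course, with medians of 18 and 21 UMIs against 0 for the Crx-positive cells.

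Split by their own G2/M RNA, members with little of it and members with much of it had different levels of fate genes. The 4 bins, chosen after seeing the data, were under 10, 10 to 40, 40 to 80 and 80 or more G2/M UMIs per 10000, with 160, 106, 127 and 117 pigmented and 85, 56, 74 and 78 albino cells. Olig2 was at 4.62, 29.8, 96.7 and 145 CPM over the pigmented bins and at 8.42, 14.2, 56.2 and 138 over the albino bins. Neurog2 was at 159.5, 412, 746 and 878 and at 104, 341, 483 and 840.0. Penk and Foxn4, a forkhead factor of amacrine and horizontal progenitors, were also highest in the top bin, at 219 and 138 CPM in the pigmented and 179.9 and 162 in the albino library.

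Isl1, Thrb, Neurod4 and the ganglion cell list were highest in the bin with the least G2/M RNA. Isl1 was at 280.2, 37.5, 24.8 and 20.1 CPM and at 372, 50.1, 11.4 and 31.6. Thrb was at 68.8, 12.5, 8.46 and 12.2 and at 90.5, 10.9, 17.9 and 12.4, and Neurod4 at 265, 53.4, 39.9 and 70.7 and at 239, 46.8, 24.5 and 61.2. The summed ganglion cell list was at 2001 CPM in the lowest and 542 in the highest pigmented bin, and at 2232 and 466 in the albino library. Ccnd1 was highest in the second bin, at 1110 and 1013 CPM, and lower in both end bins. Onecut1 and Bhlhe22, a basic helix-loop-helix factor of amacrine cells, were not highest there. Onecut1 was at 218 CPM in the lowest and 381 in the highest pigmented bin and at 181 and 442 in the albino library, and Bhlhe22 at 97.65 and 121 and at 114 and 152. Depth moved with the bins, from a median of 9574 to 13078 and from 9384 to 12050 UMIs between the end bins, and its part in these values was not tested.

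**Figure D4:**
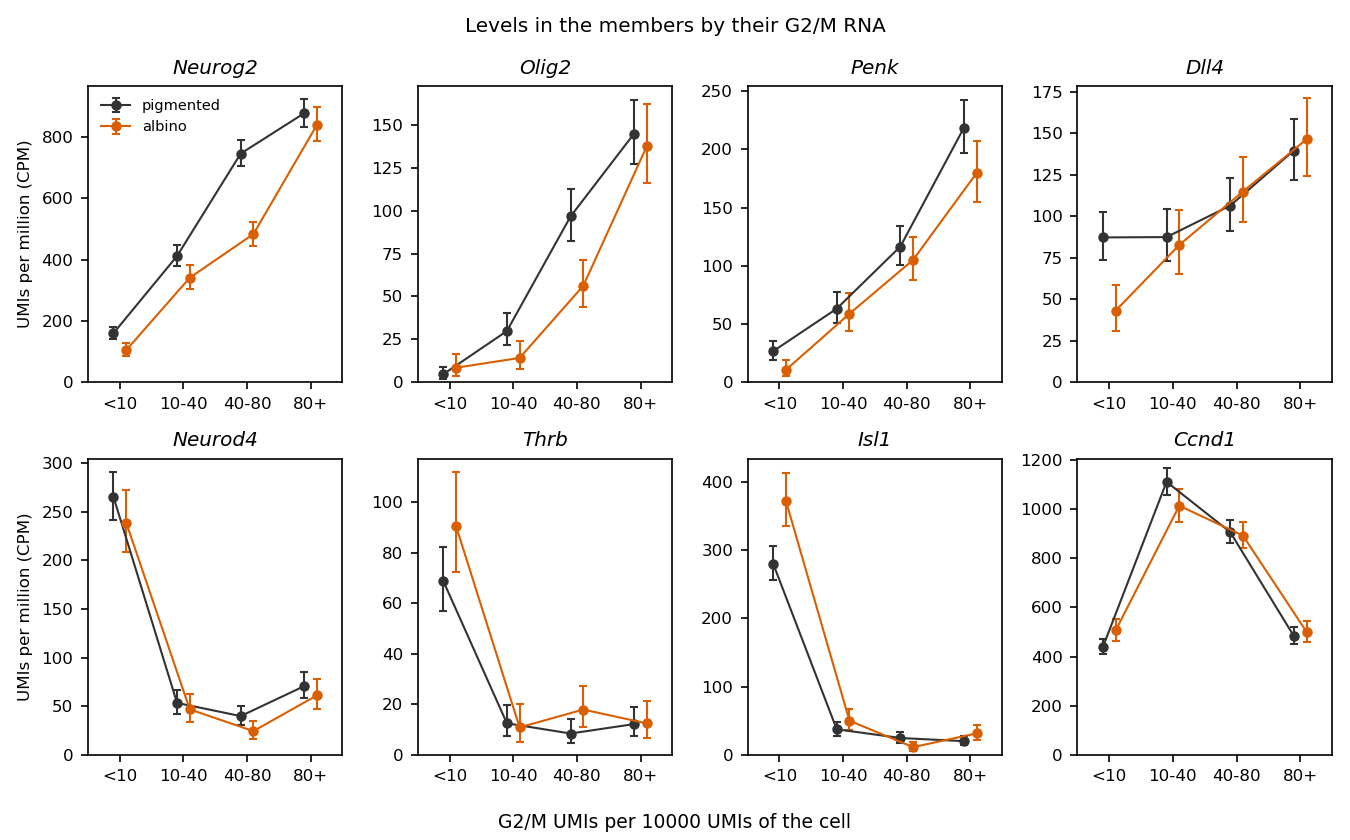
Level in CPM (y axis, from 0) of 8 genes in the members grouped by G2/M UMIs per 10000 UMIs (x axis), one line per library with exact 95% Poisson intervals. Neurog2, Olig2 and Penk are highest in the top bin, Neurod4, Thrb and Isl1 in the lowest, and Ccnd1 at 10 to 40.

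Members also differed with their Otx2 UMIs, read at 1, 2 to 4, 5 to 9 and 10 or more. Prdm1 was at 6.45, 46.1, 116 and 219 CPM over the pigmented bins and at 4.61, 23.45, 122 and 211 over the albino bins. Onecut1 was at 90.9, 226, 404 and 522 and at 138, 194, 327 and 537, and Dll4 at 50.02, 93.9, 137 and 163 and at 46.1, 94.7, 102 and 169. Ccnd1 was at 1173, 846, 431.5 and 248 and at 1155, 969, 514 and 141, and Sfrp2, a Wnt antagonist of progenitors, at 866 and 189 in the end bins of the pigmented and 844 and 122.5 of the albino library. The summed G2/M list was higher with more Otx2, at 3437 and 8140 CPM in the end bins of the pigmented and 3829 and 8424 of the albino library. Members with much Otx2 thus had the most Prdm1, Onecut1 and G2/M RNA together with the least cyclin D1 RNA. The end bins had median depths of 11435 and 11600 and of 10331 and 13050 UMIs.

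Within cells thinned to 5000 UMIs, Prdm1 was found in 32.45% (27.2 to 38.05) of 302 pigmented members with Onecut1 and 10.3% (6.41 to 15.5) of 194 without it. The albino shares were 31.5% (24.7 to 38.8) and 11.4% (6.05 to 19.1). Olig2 went with Onecut1 as well, in 31.1% and 11.3% of pigmented and 28.1% and 10.5% of albino members. Neurog2 was found in 92.2% of the 116 pigmented and 91.8% of the 61 albino members with Olig2, against 57.9% and 58.6% of those without. Isl1 was found in 4.24% (1.39 to 9.61) of pigmented members with Prdm1 and 16.7% (13.1 to 20.8) of those without. In albino members these shares were 8.82% (3.31 to 18.2) and 20% (14.9 to 26.0), and their intervals overlapped. Onecut1 was found in 0 of 20 pigmented and 0 of 12 albino members without Atoh7, which allows shares of up to 16.8% and 26.5% (upper exact bounds).

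The D cyclins and Cdk inhibitors were named for the study's interest in the cell cycle. Ccnd1 and Cdkn2c were called higher than in Crx-positive cells, Cdkn2c reaching the UMI minimum only through the members. Cdkn1a and Cdkn2c were called higher and Ccnd2 and Ccnd3 lower than in Neurod-negative cells. Ccnd2, which encodes cyclin D2, was low in members, at 28.8 CPM (pigmented) and 30.9 CPM (albino), as against 137 and 105 in Neurod-negative cells and 90.75 and 56.0 in all cells. A single albino member of 191889 UMIs held 50% of the 128 albino Ccnd2 UMIs, and without the member richest in Ccnd2 in each library the levels were 25.8 and 16.2 CPM. At 5000 UMIs it was found in 6.85% and 5.30% of members, and in 72.2% and 66.7% of mesenchyme cells, which express it (at full depth 10.98% and 7.85%, and 91.0% and 89.6%). Ccnd3 was at 43.6 and 40.6 CPM in members and 98.8 and 96.2 in Neurod-negative cells. Cdkn1c, which encodes p57, was at 191 and 167 CPM in members and 283 and 299.8 in Crx-positive cells, and was not called. Gadd45a, a stress and growth arrest gene, was called higher than in both Crx-positive and Neurod-negative cells, at 1217 and 1148 CPM against 446 and 496 and against 200.3 and 243.

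Between the libraries, the members' share of cells differed by less than counting error. It had an albino over pigmented ratio of 0.962 (0.831 to 1.11). Among cells that met every term but Crx, the members were 510 of 753 (67.7%, 64.3 to 71.1) in the pigmented and 293 of 398 (73.6%, 69.0 to 77.9) in the albino library. The albino over pigmented ratio was 1.09 (1.007 to 1.17), an interval that excludes 1. After thinning to 5000 UMIs the shares were 72.2% and 74.0% and the ratio 1.03 (0.945 to 1.11), an interval that includes 1, as it also did without the doublet calls. None of these intervals holds the spread between embryos.

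Of 9717 genes with enough UMIs, 7 were at least 2-fold higher in albino members (0.072%) and 12 lower (0.123%), 19 in either direction (0.196%). Sex genes made up 6 of the 19 and gene models 4, and 9 were other genes. Ccnd1 had a ratio of 1.02 (0.971 to 1.06), Ccnd2 of 1.075 (0.851 to 1.35) with all members and 0.628 (0.463 to 0.843) without the member richest in it in each library, Ccnd3 of 0.930 (0.764 to 1.13), Onecut1 of 0.979 (0.909 to 1.05) and Prdm1 of 0.951 (0.829 to 1.09). Neurog2 was at 0.830 (0.784 to 0.878), Atoh7 at 0.893 (0.879 to 0.907) and Cdkn1a, which encodes p21, at 0.567 (0.411 to 0.772), with 26.3% of its 57 albino UMIs in 1 cell. All 19 G2/M genes were within 2-fold, with a median of 0.04 on the log2 scale against -0.01 for all genes, and 9 of 10 neurogenic genes were below 0 in albino members with a median of -0.17. The progenitor list had a median of 0.23, which was -0.05 without cells above 50000 UMIs.

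By rank, Ptcra, Txndc16, Id3, Lrrc4c, Nol4l, Mid1, Zfp36l1, Unc5b and Gal were among the highest in albino members and C1qb, C1qa, Sult5a1, Gfod2, Rbp4, Tmem245, Cplx3, Cul9, Ctsc and Apoe were lowest. Many of these rested on 1 cell. A single pigmented cell held 98.1% of C1qb and 100% of C1qa UMIs, macrophage genes that had 0 UMIs in albino members. A single albino cell held 61.5% of Txndc16, 48.7% of Ptcra, 45.2% of Unc5b and 20.6% of Id3 UMIs. Id3, an inhibitor of basic helix-loop-helix factors, had a log2 ratio of 0.91 with all cells and 0.38 without cells above 50000 UMIs. Gfod2 was less tied to 1 cell, at 76.1 CPM in pigmented and 22.9 in albino members, a ratio of 0.302 (0.239 to 0.376), with 15.65% of the pigmented and 23.2% of the albino UMIs in 1 cell each. Nol4l was at 26.4 and 53.4 CPM, a ratio of 2.02 (1.645 to 2.48). Mid1, an X-linked gene, was at 13.6 and 28.5 CPM. Tmem245 was at 111 and 44.4 CPM, but its log2 ratio of -1.23 became 0.18 among cells with Xist and no Y-linked UMI, which in the pigmented library are 140 members.

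**Figure D5:**
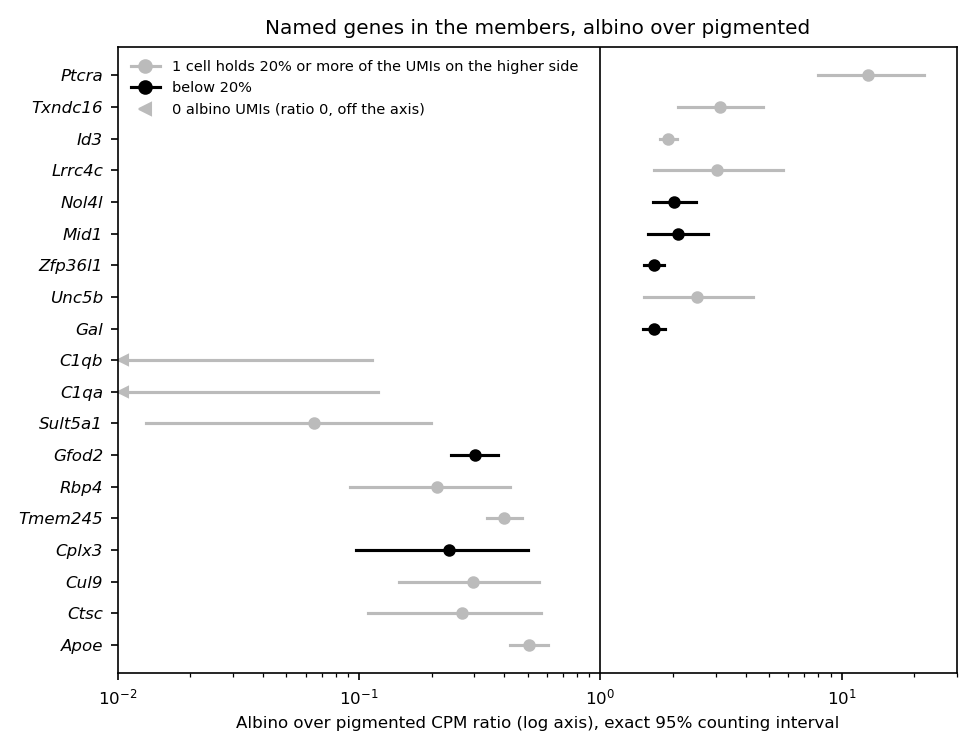
Ratio of albino to pigmented CPM in the members (x axis, log scale) for 19 of the genes ranked furthest from 1 (y axis), points with exact 95% counting intervals and grey where 1 cell held 20% or more of the UMIs on the higher side. Most rows are grey. The black ones are Nol4l, Mid1, Zfp36l1 and Gal above 1 and Gfod2 and Cplx3 below 1.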

How the data were processed

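Sorted cells of E13.5 peripheral retina were profiled by droplet 3' single-cell RNA-seq, 1 library per group. Values are raw UMI counts of 32285 genes in each barcode, as deposited. Cell Ranger appears as 2.1.1 (with mm10) in the submitters' processing notes and as 5.0.1 per the file headers. Groups follow the sample titles. The members, gene lists, bins and comparisons were chosen with earlier results of these data known.

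Barcodes under 500 genes or above 10% mitochondrial UMIs were left out. UMIs were summed per library and cell set and scaled to CPM. Genes with at least 50 UMIs over the cells compared were set against a 2-fold rule after adding 5 CPM. Intervals are exact 95% Clopper-Pearson, Poisson or conditional binomial intervals, except that the ratio of the Crx-negative shares has the log-normal interval of a ratio of shares. Named genes are those of the rule, the markers, the 10 ranked highest and lowest per comparison by the interval bound nearest to a ratio of 1 (leaving out mitochondrial, ribosomal, haemoglobin, sex and model genes), and up to 4 list members per list with the D cyclins and Cdk inhibitors. A few genes named by this rule are not reported here. Cells were thinned at random (seed 1) to 5000 UMIs. Doublets were called with Scrublet in Scanpy 1.11.5 (expected rate 5%) and removed only in an alternative. Python 3.11.15, NumPy 2.4.6, SciPy 1.17.1 and pandas 2.3.3 were used.

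The fold rule was tried on Poisson counts simulated from summed levels for the comparison with Crx-positive cells, over 10557 genes. The simulated counts held no spread between cells, no single cell rich in a gene and no doublets. They therefore show counting error only and not the rate of false calls in these data. The rule called 0 of 10357 unchanged genes. At 4-fold it called 33 of 33 genes made higher and 31 of 33 made lower. At 2.5-fold it called 27 of 34 and 13 of 33, and at 1.5-fold 0 of 34 and 0 of 33, so a gene not called may still differ. Exons of other annotated genes overlap those of Otx2, Neurod1, Onecut1, Dll4 and Penk, whose counts are uncertain to that extent.

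In the members, summed lens markers were at 9.43 CPM (pigmented) and 3.86 CPM (albino), endothelium at 8.66 and 9.90, blood at 2.165 and 0, macrophages at 19.3 and 0.2415, bipolar cells at 7.58 and 9.42, and the ciliary margin at 55.4 and 39.4.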

Additional observations from a re-analysis of the deposited data

How the results depend on the processing

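Of the results that answer a comparison, 58 values under alternatives stayed within 1.5 times the reported count or within its interval, and 10 moved. With 1 CPM added in place of 5, genes higher and lower than in Crx-positive cells numbered 495 and 642, than in Otx2-negative cells 209 and 148, and in albino over pigmented members 13 and 25. An Otx2 minimum of 2 UMIs gave 184 genes higher than in Otx2-negative cells. Thinning to 5000 UMIs left 3 genes higher in albino members, and cells with Xist and no Y-linked UMI gave 14 higher and 6 lower. The cause of these shifts was not tested. The log2 ratio of the members' share ranged from -0.13 to 0.08 and that of the Crx-negative share from 0.04 to 0.12. The removal of cells above 50000 UMIs was an alternative chosen after seeing the data.

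Of the values for single genes and lists, 1015 stayed, 185 moved and 6 changed sign among the genes named by rank, for which the cause was not tested. The log2 ratio of albino to pigmented members became -0.044 for Zfp36l1 and -0.78 for Gal after thinning, -0.42 for Gal and 0.18 for Tmem245 in cells with Xist and no Y-linked UMI, and -0.16 for Unc5b with every cell weighted equally and -0.078 without cells above 50000 UMIs. That of Gfod2 kept its sign, from -1.14 to -1.70, and so did that of Nol4l, from 0.87 to 1.33. That of Ccnd2, 0.089 with all members, was -0.54 without the member richest in it in each library and -0.53 after thinning, and the former was an alternative chosen after seeing the data.

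No paired analysis was possible because each group has 1 library. The 2 pools differ in sex and in strain as well as pigmentation, and no spread between embryos can be had. A Crx count of 0 depends on depth, as the thinned shares show.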

Other observations

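Of the S phase list, Mcm3, Mcm6, Pcna, Rrm2, Tyms and Uhrf1 were called higher in the members than in Crx-positive cells. The list had medians of 1.01 and 1.56 on the log2 scale, against -0.10 and -0.09 for all genes, of which 3.09% were called higher. Ung, Cdc6 and Cdc45 were called higher too, but reached the UMI minimum only through the members, so no count is given. Of the 18 genes, 0 were called against Otx2-negative or Neurod-negative cells. The median thinned member had 6 S phase UMIs in both libraries, against 2 in Crx-positive cells, 4 and 3 in Otx2-negative cells and 8 and 7 in Neurod-negative cells. Of 10 genes of cell cycle exit, 5 were higher than in Neurod-negative cells (Cdkn1a, Cdkn2c, Gadd45a, Gadd45g and Btg2), against 1.64% of all genes. Gadd45a and Cdkn2c were higher than in Crx-positive cells, where 3.09% of all genes were, Cdkn2c reaching the UMI minimum only through the members.

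Of 14 amacrine and horizontal cell genes, 8 had enough UMIs in these comparisons. Foxn4 and Bhlhe22 were called higher than in Crx-positive cells, where 3.09% of all genes were. In that comparison Foxn4 reached the UMI minimum only through the members. Onecut1 and Foxn4 were called higher and Barhl2 and Gad2 lower than in Otx2-negative cells, where 1.09% and 0.553% of all genes were. The Ptf1a-positive cells, 35 pigmented and 20 albino, had less G2/M RNA in the 2 genes shown than the members, with Top2a at 333 and 167.5 CPM and Ube2c at 408 and 218. Their Onecut1 was at 150.2 and 172 CPM and their Prdm1 at 100.1 and 122 CPM. The deepest Ptf1a-positive cells had 92111 and 152843 UMIs, against medians of 11560 and 13006, so single cells weigh on these summed levels. Scrublet marked 17.1% of the pigmented and 0% of the albino Ptf1a-positive cells. The part of either in these levels was not tested.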
